A study of Mus musculus with 2 samples.

Results

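Bone morphogenetic protein (BMP) ligands and the genes that report the response to them were followed through single-cell RNA sequencing of E7 mouse embryos with and without *Yap1* in the epiblast. The 10 genes were chosen by symbol. They are the ligands *Bmp2*, *Bmp4* and *Bmp7*, the inhibitor of DNA binding genes *Id1*, *Id2*, *Id3* and *Id4*, the inhibitory Smads *Smad6* and *Smad7*, and the pseudoreceptor *Bambi*, and all 10 were among the 32285 genes listed. The question was whether a higher level of *Id1* in mutant epiblast was shared by the other genes that BMP signals are known to raise. *Id1* is a short gene at chr2:152736251-152737410, *Id2* lies at chr12:25093799-25097140, *Id3* at chr4:136143497-136145755 and *Id4* at chr13:48261228-48266026 (GRCm38). The control pool was Sox2cre:Yapflox/+ by the series design and WT by its sample label, and the *Yap1* cKO pool was Sox2cre:Yapflox/flox. Sox2-Cre recombines in the epiblast and its descendants, so extraembryonic endoderm and ectoderm, which arise earlier, are not its target. The paper on these data describes *Yap1*fl/fl embryos, control and cKO, as likely *Yap1* heterozygotes in extraembryonic tissue, because the paternal allele was deleted. Embryos of a genotype were pooled before dissociation into 1 library, so each genotype has a single library, the genotypes were not compared by a test, and differences between embryos or libraries cannot be told apart from differences between genotypes.

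BMP ligands are secreted dimers that bind type I and type II receptor kinases, which phosphorylate Smad1, Smad5 and Smad9. These enter the nucleus with Smad4 and activate a small set of direct targets, of which the *Id* genes are the best known. *Id* proteins bind E proteins such as Tcf3 and keep them from DNA. *Smad6*, *Smad7* and *Bambi* are targets too and act as negative feedback. In the gastrulating mouse embryo, *Bmp4* from the extraembryonic ectoderm acts on the adjacent epiblast, where it is needed for mesoderm and primordial germ cells.

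Values are unique molecular identifiers (UMIs) of a gene added up over a population and scaled to the same total in each population (CPM, the usual unit of counts relative to depth). Levels of different genes are not compared, because 3′ counts differ in capture between genes. Numbers in parentheses after a level or a ratio are 95% intervals that cover counting error only. The control library had 790 cells and the *Yap1* cKO library 860, with medians of 75696.5 and 80559 UMIs. Cells were sorted into populations by marker genes, none of which is among the 10 genes. Epiblast, defined by *Pou5f1* and other pluripotency genes without *T*, *Mixl1* or *Mesp1*, had 268 control and 256 *Yap1* cKO cells. *Yap1* itself was at 29.8 CPM in control epiblast, against 1.04 CPM in that of the *Yap1* cKO, and its ratio was at most 0.137 in every embryonic population. In visceral endoderm (VE) its ratio was 0.939. Anterior visceral endoderm (AVE) had 39.1 control and 12.4 mutant CPM of *Yap1*, from 37 and 19 UMIs, and its *Yap1* ratio was 0.316 (0.172 to 0.565). For extraembryonic ectoderm the *Yap1* ratio was 0.751 (0.635 to 0.885). *Yap1* was thus also lower in mutant AVE and extraembryonic ectoderm, which are not targets of Sox2-Cre. The cause was not tested.

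The pools also differed in sex. Both are labelled female, but Y-bearing cells made up 51.6% of control and 15.6% of *Yap1* cKO cells. Epiblast cells with at least 50 CPM of *Fgf8*, a gene of the primitive streak (PS) and the epiblast next to it, numbered 76 of 268 for the control and 143 of 256 for the mutant pool. Epiblast values are therefore also given within Y-bearing and *Xist*-bearing cells and, for the genes with more UMIs, within classes of *Fgf8* level.

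Start-site windows from RefSeq on GRCm38 matched 5 of the 10 genes: *Bmp4*, *Id2*, *Id3*, *Id4* and *Smad6*. Those of *Bmp4* and *Smad6*, which were both lower in mutant *Foxf1*/*Hand1* mesoderm, and of *Id4*, which was higher in mutant epiblast, are shown as the 250 bases before the start, 5′ to 3′ on the strand of the gene. The *Bmp4* window is chr14:46390670-46390919 on the minus strand, the *Smad6* window chr9:64022060-64022309 on the minus strand and the *Id4* window chr13:48260866-48261115 on the plus strand, each upstream of the first exon. Capitals mark 3 motifs searched on both strands: GGCGCC, a GC-rich Smad element, CAGAC, a short Smad-binding element, and CATTCC, the element of the TEAD factors that recruit Yap1.
Bmp4: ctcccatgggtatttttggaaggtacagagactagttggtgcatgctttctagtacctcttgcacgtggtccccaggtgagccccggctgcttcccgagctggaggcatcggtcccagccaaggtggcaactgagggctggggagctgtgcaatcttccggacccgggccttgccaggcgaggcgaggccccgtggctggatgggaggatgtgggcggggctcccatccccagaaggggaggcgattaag
Smad6: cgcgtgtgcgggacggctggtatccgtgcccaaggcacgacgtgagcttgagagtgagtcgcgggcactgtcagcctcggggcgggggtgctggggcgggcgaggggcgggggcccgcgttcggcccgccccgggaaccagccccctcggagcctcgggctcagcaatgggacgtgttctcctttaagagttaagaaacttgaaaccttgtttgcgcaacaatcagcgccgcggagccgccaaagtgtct
Id4: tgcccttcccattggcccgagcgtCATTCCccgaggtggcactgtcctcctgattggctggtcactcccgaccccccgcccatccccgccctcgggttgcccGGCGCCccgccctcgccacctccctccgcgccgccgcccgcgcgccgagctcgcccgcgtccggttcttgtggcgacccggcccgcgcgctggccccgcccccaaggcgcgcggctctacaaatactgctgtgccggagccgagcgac
The *Bmp4* and *Smad6* windows held 0 matches to any of the motifs. The *Id4* window held GGCGCC 148 bases and CATTCC 226 bases before the start. The windows of *Id2* and *Id3* are not shown because they lie inside the annotated gene, in an exon of the 5′ untranslated region. They are thus not upstream of the whole gene. That of *Id2* held GGCGCC once, and that of *Id3* held CAGAC at 167 and 68 bases and CATTCC at 203 bases before the RefSeq start used. Among 32851 windows of this length, 9.59% held GGCGCC, 42.2% CAGAC and 12.6% CATTCC, so a match is common and says nothing of binding.

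*Bmp4*, the ligand whose loss blocks mesoderm formation, came mainly from extraembryonic ectoderm (ExE). ExE cells held 74.0% of all *Bmp4* UMIs among control and 67.5% among mutant cells, and *Foxf1*/*Hand1* mesoderm, named for genes of early extraembryonic and lateral mesoderm, a further 17.9% and 15%. In ExE *Bmp4* was at 137 CPM (132 to 143) in control cells, and 127 CPM (120 to 133) in mutant cells, a ratio of 0.921 (0.863 to 0.983). In *Foxf1*/*Hand1* mesoderm it was at 100.1 CPM in control cells, and 60.4 CPM in mutant cells, and in blood and endothelial progenitors at 35.3 and 52.5 CPM. Each other population was under 8 CPM. The order ExE, *Foxf1*/*Hand1* mesoderm, blood and endothelial progenitors held in both libraries, but in the *Yap1* cKO the intervals of the last 2 overlapped. By sex, the ExE ratio was 0.706 (0.614 to 0.810) among Y-bearing cells, 108 control and 18 mutant, and 0.984 (0.891 to 1.09) among *Xist*-bearing cells, 48 and 69.

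The ligands *Bmp2* and *Bmp7* had other sources. *Bmp2* was highest in AVE, at 189 CPM (162 to 219) in control and 185 CPM (164 to 208) in mutant cells, followed by blood and endothelial progenitors at 68.3 and 72.2 CPM. *Bmp7* was highest in node and axial mesendoderm, at 42.4 CPM in control and 38.6 CPM in mutant cells. The intervals of the libraries overlapped at each of these places. Epiblast cells held few ligand UMIs: *Bmp2* had 22 control and 16 *Yap1* cKO UMIs, *Bmp4* 43 and 48, and *Bmp7* 25 and 16. The *Bmp4* ratio in epiblast was 0.945 (0.613 to 1.46).

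**Figure D1:**
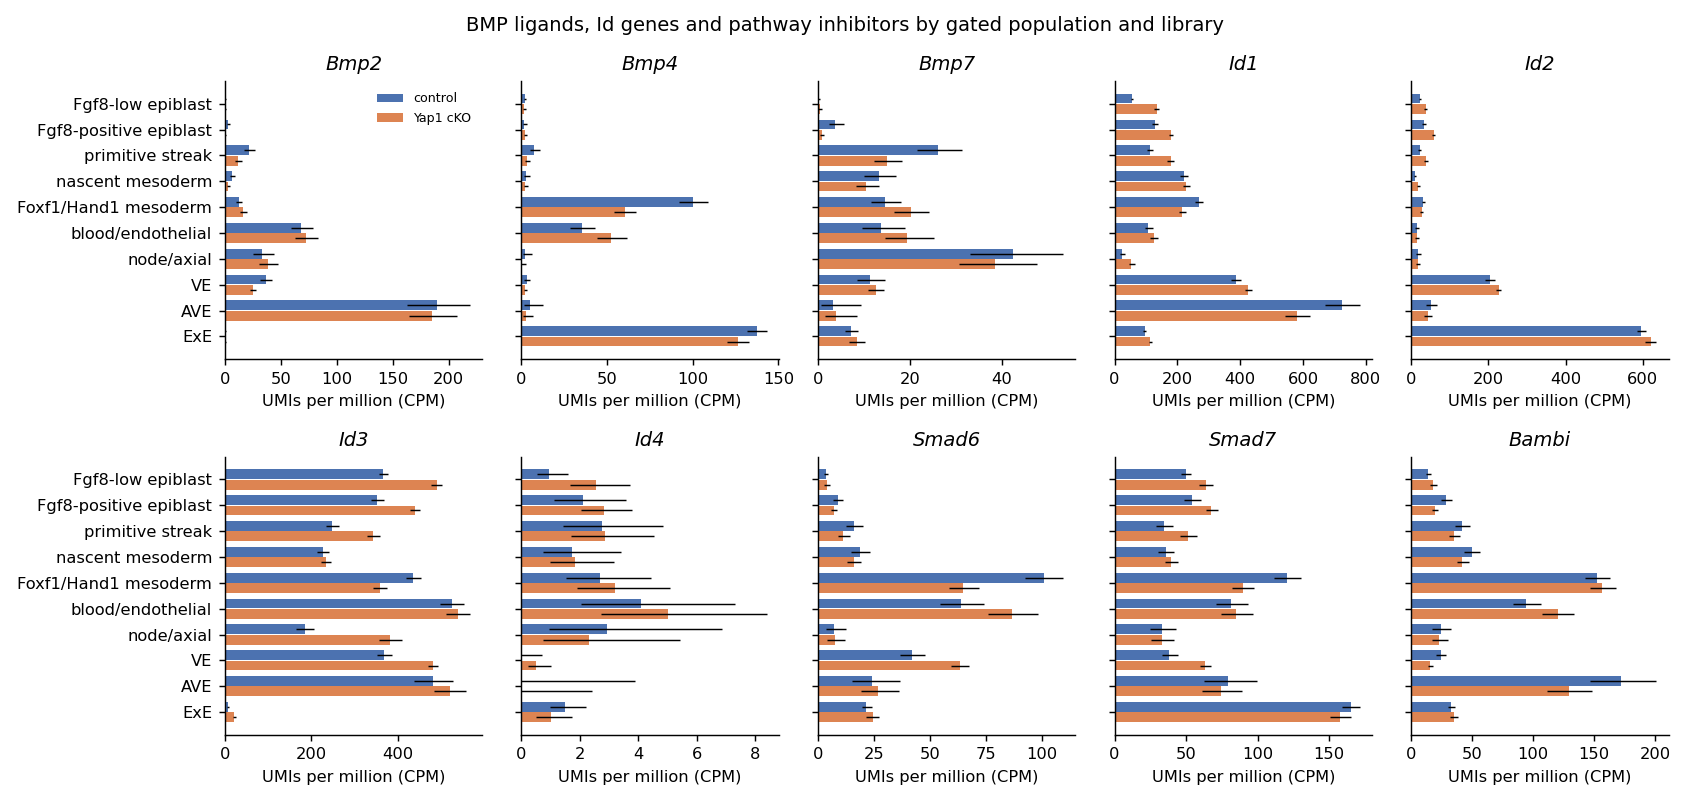
Level of each of the 10 genes (CPM, horizontal axis, its own scale for each gene) in 10 marker-gated populations, with control in blue and *Yap1* cKO in orange; bars are sums over cells of 1 library and error lines are 95% counting intervals. *Bmp4* bars are long in ExE (137 and 127 CPM) and *Foxf1*/*Hand1* mesoderm (100.1 and 60.4 CPM), and *Id1* in epiblast is longer in orange in both *Fgf8* classes.

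In epiblast, *Id1*, *Id2* and *Id4* were higher in the *Yap1* cKO library by 1.5-fold or more, and *Id3* and *Smad7* by less. *Id1* was at 76.8 CPM (73.2 to 80.5) in control cells, and 161 CPM (156 to 166) in mutant cells, a ratio of 2.09 (1.98 to 2.21). *Id2* was at 25.2 and 49.8 CPM, with a ratio of 1.98 (1.79 to 2.19). *Id4*, the *Id* gene with the fewest UMIs (28 and 70), was at 1.28 and 2.71 CPM, with a ratio of 2.12 (1.35 to 3.41). *Id3*, which had a UMI in every epiblast cell of both libraries, differed less. It was at 362 CPM (354 to 370) in control cells, and 460 CPM (451 to 468) in mutant cells, a ratio of 1.27 (1.23 to 1.31). So the 4 *Id* genes pointed the same way over all epiblast cells and differed in size.

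The feedback inhibitors were split. *Smad7*, which blocks both BMP and Nodal receptors, was at 51.3 CPM in control cells, and 66.2 CPM in mutant cells, a ratio of 1.29 (1.20 to 1.39). *Smad6*, the inhibitor more specific to BMP receptors, was at 4.94 and 5.77 CPM, with a ratio of 1.17 (0.905 to 1.51) whose interval held 1. *Bambi*, a receptor-like protein without a kinase domain, was at 18.2 CPM in control (399 UMIs) and at nearly that level in mutant epiblast (491 UMIs), with a ratio of 1.04 (0.911 to 1.19). Of the 10 genes, 8 had at least 50 UMIs over both libraries in epiblast. Of these 8, 3 (*Id1*, *Id2* and *Id4*) were higher by 1.5-fold or more, beside 2.17% of all 12973 genes with as many UMIs. None of the 8 was lower by as much, beside 3.6% of genes. The rise of *Id1* posed the question, so of these 3 only *Id2* and *Id4* bear on whether it was shared. In *Xist*-bearing cells alone *Id1* had a ratio of 1.31 and *Id2* one of 1.45, both under 1.5-fold. *Id4* had a ratio of 1.54 (0.877 to 2.80) there, an interval that held 1. The share of all genes past the fold was not taken in *Xist*-bearing cells. Over all epiblast cells the median ratio of the 8 was 1.28 and that of all genes 0.963. *Bmp2* and *Bmp7* were under 50 UMIs and had ratios of 0.615 (0.302 to 1.23) and 0.542 (0.27 to 1.06). Both had opposite directions by sex, with ratios of 6.05 (0.598 to 298) for *Bmp2* and 6.05 (1.21 to 58.4) for *Bmp7* in Y-bearing cells, and of 0.273 (0.109 to 0.633) and 0.175 (0.0635 to 0.422) in *Xist*-bearing cells. The Y-bearing ratios rest on 1 and 4 UMIs of *Bmp2* and 2 and 8 of *Bmp7*. *Bmp4* had ratios of 1.34 (0.641 to 2.79) in Y-bearing and 0.645 (0.363 to 1.15) in *Xist*-bearing cells, both with intervals that held 1. From 20 UMIs *Bmp2* and *Bmp7* would be 2 genes lower, beside 6.47% of genes.

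**Figure D2:**
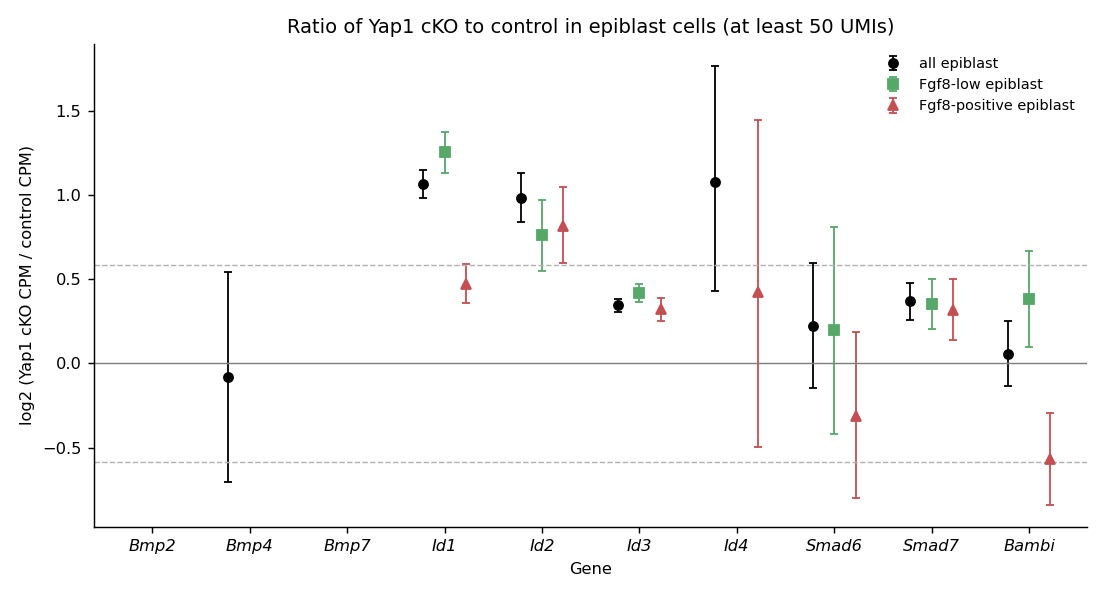
Ratio of *Yap1* cKO to control (log2, vertical axis) of each gene with at least 50 UMIs in all epiblast cells (black circles) and in its *Fgf8*-low (green squares) and *Fgf8*-positive (red triangles) cells; lines are 95% counting intervals and dashed lines mark 1.5-fold. *Id1* in *Fgf8*-low cells (ratio 2.39) stands above *Id1* in *Fgf8*-positive cells (1.39), and *Bambi* lies on opposite sides of 0 in the 2 classes.

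Embryos of a pool can be told apart only by sex-linked genes, and the *Id1* ratio differed between Y-bearing and *Xist*-bearing cells. In the control, *Id1* was at 45.5 CPM in 137 Y-bearing and 113 CPM in 121 *Xist*-bearing epiblast cells. In the *Yap1* cKO it was at 194 CPM in 54 Y-bearing and 148 CPM in 191 *Xist*-bearing cells. Both mutant values lay above both control values, but the ratio was 4.26 (3.84 to 4.73) for Y-bearing and 1.31 (1.22 to 1.41) for *Xist*-bearing cells. The *Id1* gap inside the control pool was a Y-bearing to *Xist*-bearing ratio of 0.403. In fold it was larger than the *Yap1* cKO to control ratio among *Xist*-bearing cells, and larger than that over all epiblast cells (2.09). *Fgf8* moved with *Id1* in the control, at 59.4 CPM in Y-bearing and 106 CPM in *Xist*-bearing cells, and the levels of *Id1* at like *Fgf8* follow in the next paragraphs.

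*Id2* showed the same order as *Id1* in the control, with 20.6 CPM in Y-bearing and 31.2 CPM in *Xist*-bearing cells, and was at 63.0 and 45.1 CPM in the *Yap1* cKO. *Id3* was at 334 and 385 CPM in control, and at 535 and 430 CPM in mutant, cells. *Smad7* was the steadiest across the split, at 50.8 and 51.4 CPM in the control and 68.3 and 65.9 CPM in the *Yap1* cKO. The control values of *Smad7* were within counting error of each other, as were its mutant values. *Id4* was at 0.916 and 1.78 CPM against 2.49 and 2.73 CPM, from only 10 and 18 against 18 and 48 UMIs. *Smad6* (4.31 and 5.93 against 7.75 and 5.06 CPM) and *Bambi* (14.3 and 22.5 against 20.4 and 18.7 CPM) overlapped between the pools. *Id1*, *Id2*, *Id3*, *Id4* and *Smad7*, 5 of the 8 genes, thus had both mutant values above both control values, beside 14.4% of all genes. *Id1*, whose rise posed the question, is among these 5. None of the 8 had both below, beside 29% of genes.

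**Figure D3:**
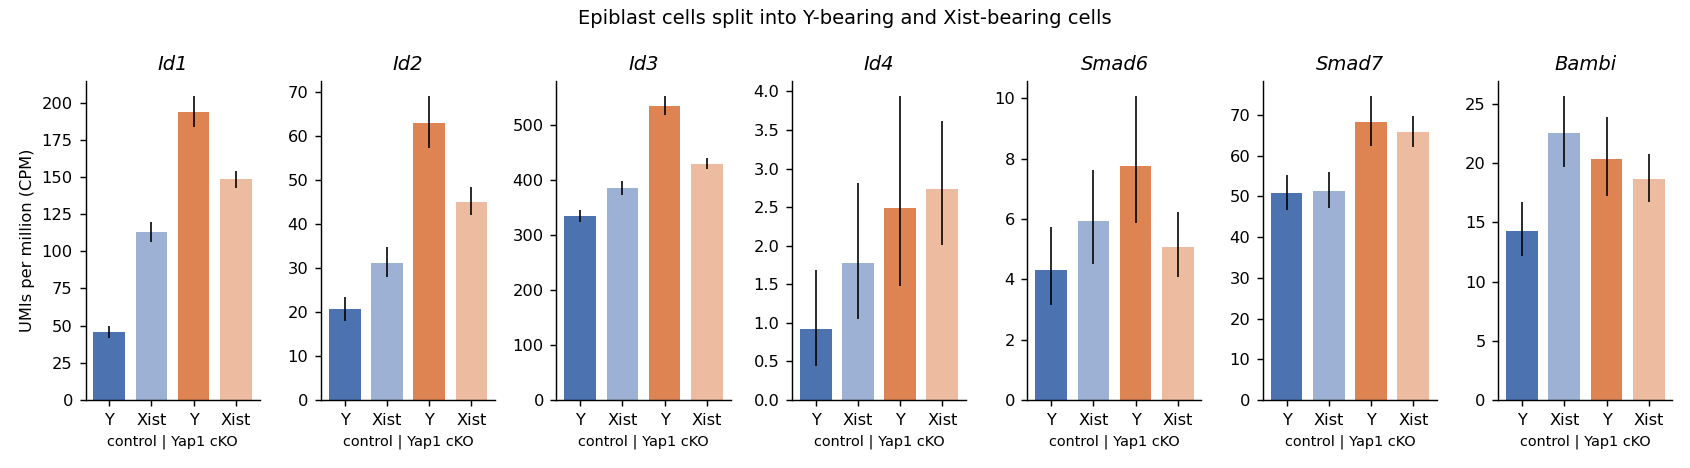
Level (CPM, vertical axis, its own scale for each gene) in Y-bearing and *Xist*-bearing epiblast cells of the control (blue) and *Yap1* cKO (orange) library, *Xist*-bearing cells in the paler colour; error lines are 95% counting intervals. *Id1* is low in Y-bearing control cells (45.5 CPM), and *Smad7* has near-equal bars within each library.

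The level of *Id1* also followed *Fgf8* among epiblast cells, and the mutant library had more *Fgf8*-positive cells. In cells with 0 *Fgf8* UMIs (90 control, 34 *Yap1* cKO), *Id1* was at 26.4 CPM (22.5 to 30.6) in control cells, and 120 CPM (107 to 135) in mutant cells, a ratio of 4.57. Under 50 CPM of *Fgf8* the ratio was 1.79, from 50 to 200 CPM it was 1.33 (1.19 to 1.49), and at 200 CPM or more it was 1.44 (1.29 to 1.62). *Id1* was thus higher in the *Yap1* cKO library in all 4 *Fgf8* classes, by least in the class from 50 to 200 CPM. With both libraries weighted to the same *Fgf8* distribution, the *Id1* ratio was 1.74 and that of *Id2* 1.68.

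In *Fgf8*-low cells as a whole *Id1* and *Id2* were the 2 of 6 genes higher by 1.5-fold or more, beside 2.08% of genes. There 0 were lower, beside 3.01%, and *Id1* was again the gene that posed the question. In *Fgf8*-positive cells *Id2* was 1 of 7 higher, beside 2.72%, and 0 were lower, beside 4.72%. By finer *Fgf8* classes, *Id2* had ratios of 1.95, 1.47, 1.52 and 2.08, with no lower bound under 1. *Id3* had ratios of 1.34, 1.28, 1.11 and 1.43. *Smad7* was at 38.5 and 51.2 CPM in cells with 0 *Fgf8* UMIs and at 51.7 and 68.0 CPM in cells with 200 CPM or more, with ratios of 1.33 and 1.32. Its ratio was 1.16 (1.03 to 1.31) under 50 CPM of *Fgf8*. From 50 to 200 CPM it was 1.18 (0.995 to 1.41), an interval that held 1. *Bambi* changed side: its ratio was 1.29 (1.01 to 1.65) under 50 CPM of *Fgf8* and 0.622 (0.482 to 0.806) at 200 CPM or more. *Bmp2* and *Bmp7* were also lower in the class with the most *Fgf8*, with 16 control and 4 *Yap1* cKO UMIs and with 23 and 11. These 3 genes moved with *Cer1* and *Foxa2*, markers of anterior streak and endoderm. In all *Fgf8*-positive epiblast cells *Cer1* was at 70.9 CPM in control cells, and 10.7 CPM in mutant cells, and *Foxa2* at 11.8 and 4.86 CPM. In the 10 control and 9 *Yap1* cKO cells over 20 CPM of either gene, the ratio was 0.459 (0.158 to 1.20) for *Bmp2*, 0.295 (0.0970 to 0.762) for *Bmp7* and 0.270 (0.148 to 0.467) for *Bambi*. Without these cells *Bmp2*, with 3 and 4 UMIs, had a ratio of 0.504 (0.0853 to 3.44). *Bmp7*, with 3 and 6 UMIs, then had a ratio of 0.756 (0.161 to 4.67) and *Bambi* one of 0.904 (0.726 to 1.13). The part of these cells in the lower levels was not tested. *Id1* in the remaining cells was at 135 and 180 CPM, with a ratio of 1.33 (1.23 to 1.45).

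**Figure D4:**
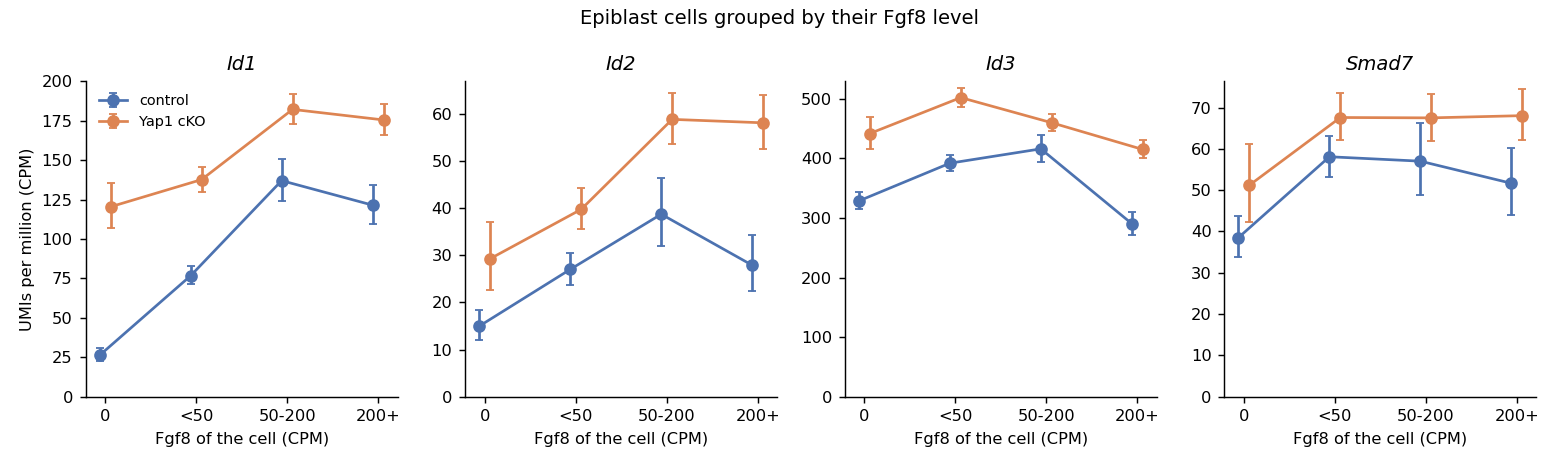
Level (CPM, vertical axis) of *Id1*, *Id2*, *Id3* and *Smad7* in epiblast cells grouped by *Fgf8* (CPM, horizontal axis), control in blue and *Yap1* cKO in orange; error lines are 95% counting intervals. The orange points lie above the blue in every class, and the *Id1* lines are widest apart at 0 *Fgf8* (26.4 and 120 CPM).

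Within the *Fgf8*-positive epiblast the split by sex gave opposite signs for *Id1*. It was at 49.4 CPM in 32 Y-bearing and 193 CPM in 40 *Xist*-bearing control cells, and at 241 CPM in 40 Y-bearing and 145 CPM in 96 *Xist*-bearing *Yap1* cKO cells. The ratio was 4.87 (4.04 to 5.93) for Y-bearing and 0.747 (0.681 to 0.821) for *Xist*-bearing cells. *Id3* did likewise, with ratios of 1.93 and 0.938. *Id2* and *Smad7*, 2 of 7 genes, had both mutant values above both control values, beside 14.4% of all genes, and 0 had both below, beside 26.5%. *Id2* had ratios of 3.01 and 1.25. *Smad7* had ratios of 1.08 (0.887 to 1.31), an interval that held 1, and 1.49. In the *Fgf8*-low epiblast *Id1* was at 44.4 and 52.5 CPM in Y-bearing cells, of which the *Yap1* cKO had 14, and at 70.3 and 152 CPM in *Xist*-bearing cells. There *Id2*, *Id3*, *Smad6*, *Smad7* and *Bambi*, 5 of 6 genes, had both mutant values above both control values, beside 14.4% of all genes, and 0 had both below, beside 22.6%. That order ignores counting error. *Smad6* had ratios of 1.21 (0.482 to 2.70) in Y-bearing and 1.21 (0.685 to 2.16) in *Xist*-bearing cells, and *Bambi* 1.33 (0.871 to 1.99) and 1.23 (0.948 to 1.60). These intervals held 1, as did that of *Id2* in Y-bearing cells, 1.40 (0.994 to 1.93). *Id1* thus had both mutant values above both control values in all epiblast cells but in neither *Fgf8* class. In *Fgf8*-low cells its ratio was 2.17 (1.95 to 2.42) in the *Xist*-bearing cells, and 1.18 (0.934 to 1.49), an interval that held 1, in the Y-bearing cells.

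More epiblast cells held *Id1*, and more of them held much of it. With cells thinned to 38000 UMIs, 35.1% (29.4 to 41.2) of the 265 control cells and 61.5% (55.2 to 67.6) of the 247 mutant cells had an *Id1* UMI. Without thinning the shares were 44.4% and 71.5%. Cells with 10 or more *Id1* UMIs made up 11.3% of control and 23.5% of *Yap1* cKO cells after thinning. *Id2* was found in 40.4% and 54.7% of cells and *Id4* in 4.91% and 8.91%, where the *Id4* intervals overlapped. *Id3* reached 10 UMIs in 61.1% and 74.9% of cells. By *Fgf8* class, an *Id1* UMI was found in 30.2% and 62.4% of *Fgf8*-low cells. In *Fgf8*-positive cells the *Id1* shares, 47.4% (35.8 to 59.2) and 60.9% (52.2 to 69.1), overlapped. The shares with 10 or more *Id1* UMIs, 17.1% and 24.6%, overlapped there too. *Id2* shares were 36.0% and 50.5% in *Fgf8*-low and 51.3% and 58.0% in *Fgf8*-positive cells, with overlapping intervals in both classes. No gated population lacked *Id1*, so barcodes with under 1000 genes, 433 control and 304 *Yap1* cKO, stood in for free RNA. They are among the deposited barcodes and were not shown to be empty. *Id1* was at 98.1 CPM in those of the control library and 246 CPM in those of the mutant library, and VE genes at 1104 and 6548 CPM. From the VE genes seen in epiblast, such RNA made up 0.688% and 0.180% of epiblast UMIs. Its subtraction left the *Id1* ratio at 2.09, a value that rests on this stand-in.

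Cells with an *Id1* UMI also held more *Id2* UMIs. Across epiblast cells thinned to 1 depth, Spearman's rho between them was 0.416 over 265 control cells and 0.641 over 247 mutant cells, which share a library within each pool. *Yap1* cKO cells with an *Id1* UMI held 2.36 *Id2* UMIs on average, and those without held 0.411. For *Id1* and *Id3* rho was 0.329 and 0.484. For *Id1* and *Smad7* it was 0.144 and 0.126. The relation was thus closest for *Id2* and weak for *Smad7*.

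**Figure D5:**
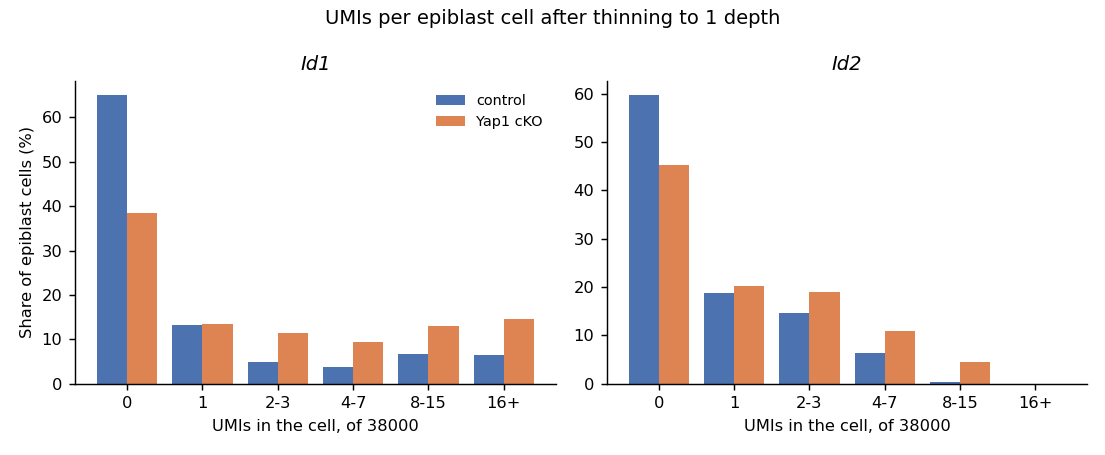
Share of epiblast cells (%, vertical axis) by the number of *Id1* or *Id2* UMIs they held (horizontal axis) after thinning to 38000 UMIs, control in blue and *Yap1* cKO in orange. The blue bar at 0 *Id1* UMIs is the tallest, and the orange bars exceed the blue in the classes with most UMIs.

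*Id1*, *Id2* and *Id3* were also higher in the primitive streak, while the ligands were lower. PS cells, with *T* or *Mixl1*, numbered 56 and 69, of which 25 and 7 were Y-bearing. There *Id1* was at 113 and 178 CPM, with a ratio of 1.58 (1.42 to 1.76), *Id2* at 21.9 and 37.7 CPM, with a ratio of 1.72 (1.35 to 2.20), and *Id3* at 248 and 342 CPM, with a ratio of 1.38. The *Id1* ratio was 2.37 for Y-bearing and 1.26 for *Xist*-bearing PS cells, and that of *Id2* was 3.44 and 1.37. *Smad7* had a ratio of 1.49 (1.22 to 1.81). *Bmp2* was at 21.7 and 11.98 CPM, with a ratio of 0.552 (0.402 to 0.756), and *Bmp7* at 26.1 and 15.01 CPM, with a ratio of 0.576 (0.433 to 0.763). *Bmp4* had 33 and 19 UMIs, a ratio of 0.398, with 48.5% of the control UMIs in 1 cell, and a ratio of 0.753 without the 5 cells of each library with most *Bmp4* UMIs. *Smad6* had a ratio of 0.712 (0.504 to 1.01), *Bambi* one of 0.849 (0.694 to 1.04) and *Id4* one of 1.04 (0.473 to 2.36). Of 9 genes with at least 50 UMIs, 2 (*Id1*, *Id2*) were higher by 1.5-fold or more, beside 2.33% of genes, and 3 (the ligands) were lower, beside 5.34%. The median ratio of the 9 was 0.849 and that of all genes 0.968. In *Xist*-bearing PS cells alone *Id1* and *Id2* were under 1.5-fold. *Bmp2* had a ratio of 0.770 (0.522 to 1.15) there, an interval that held 1, *Bmp7* one of 0.623 and *Bmp4* one of 0.282. Y-bearing PS cells held 47 control and 0 mutant *Bmp2* UMIs, 43 and 5 of *Bmp7*, and 7 and 3 of *Bmp4*. PS cells over 20 CPM of *Cer1* or *Foxa2*, 27 control and 35 mutant cells, held 91 of 94 and 75 of 75 *Bmp2* UMIs. Among these cells *Bmp2* had a ratio of 0.559, and *Id1*, at 53.8 and 65.0 CPM, one of 1.21 (0.958 to 1.53), whose interval held 1. Among the other PS cells *Id1*, at 173 and 297 CPM, had a ratio of 1.72 (1.52 to 1.94).

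In nascent mesoderm, marked by *Mesp1*, the *Id1* difference was not seen. *Id1* was at 221 CPM (208 to 235) in control cells, and 228 CPM (217 to 240) in mutant cells, a ratio of 1.03, and *Id3* had a ratio of 1.03 as well. *Id2*, at 9.54 and 18.5 CPM, had a ratio of 1.93 (1.36 to 2.79). *Bmp2* had 30 and 22 UMIs, a ratio of 0.48 (0.264 to 0.861). These were the only genes of 8 past 1.5-fold, 1 higher beside 3.39% and 1 lower beside 3.18% of all genes. The *Id2* difference was not seen after thinning, where nascent mesoderm cells averaged 0.5 control and 0.506 mutant *Id2* UMIs. Cells with an *Id2* UMI then made up 32.8% and 28.6%, with overlapping intervals. Under other ways of processing, the *Id2* ratio ran from 1.01 to 4.75. Of the nascent mesoderm cells, 29 of 58 control but 5 of 78 mutant cells were Y-bearing. In the 23 control and 27 *Yap1* cKO cells of node and axial mesendoderm, *Id1* was at 23.6 and 53.9 CPM, with a ratio of 2.29 (1.58 to 3.37), and *Id3* at 184 and 382 CPM, with a ratio of 2.07 (1.82 to 2.37). They were 2 of 7 genes higher past the fold, beside 2.88%, with 0 lower, beside 6.63%, and 1 of the 27 mutant cells was Y-bearing against 14 of the 23 control cells. After thinning, node cells averaged 1.05 control and 1.36 mutant *Id1* UMIs, and 7.59 and 14.4 *Id3* UMIs. An *Id1* UMI was then found in 40.9% and 48% of them, with overlapping intervals.

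In *Foxf1*/*Hand1* mesoderm *Bmp4*, *Smad6*, *Smad7*, *Id1* and *Id3* were lower in the *Yap1* cKO library. *Bmp4* had a ratio of 0.603 (0.525 to 0.692). *Smad6* was at 100.8 and 64.8 CPM, with a ratio of 0.643 (0.562 to 0.735), and *Smad7* at 121 and 89.7 CPM, with a ratio of 0.742 (0.660 to 0.835). *Id1* was at 269 and 216 CPM, with a ratio of 0.803 (0.743 to 0.866), and *Id3* at 435 and 359 CPM, with a ratio of 0.824. *Bambi*, at 153 and 157 CPM, had a ratio of 1.03 (0.934 to 1.13), and *Bmp7*, at 14.6 and 20.2 CPM, one of 1.38 (1.03 to 1.87). Of 9 genes, 2 (*Bmp4* and *Smad6*) were lower by 1.5-fold or more, beside 4.56% of genes, and none was higher, beside 3.87%. *Bmp4* was lower in both splits by sex, with ratios of 0.503 for Y-bearing and 0.776 for *Xist*-bearing cells, whereas *Id1* had ratios of 0.965 (0.847 to 1.10) and 0.615 (0.549 to 0.690). *Smad6* had ratios of 0.733 (0.587 to 0.908) and 0.820 (0.658 to 1.03), neither past 1.5-fold, and 50 of 77 control but 17 of 71 mutant cells were Y-bearing.

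The mutant cells in this gate carried more of earlier markers. *T*, *Mixl1*, *Eomes*, *Fgf8*, *Mesp1*, *Lefty2* and *Snai1* were all higher in the *Yap1* cKO, by ratios from 1.34 (*T*) to 3.06 (*Lefty2*), and *Tbx20*, a marker of this mesoderm that did not define the gate, was at 101 and 60.9 CPM, with a ratio of 0.600. *Pitx1*, another marker on the list for this mesoderm, was near 0 in both, at 1.80 and 1.07 CPM. *Cer1* was at 0.540 and 39.5 CPM. The part of these markers in the lower *Bmp4* and *Smad6* was not tested. In blood and endothelial progenitors, 30 cells in each library, all 9 genes with enough UMIs had ratios above 1, beside 51.0% of all genes. Of the 9, 0 were higher by 1.5-fold, beside 5.76% of genes, and 0 lower, beside 3.69%. *Bmp4* had the largest ratio there, 1.49 (1.14 to 1.95), and *Smad6* was at 63.9 and 86.5 CPM. Under other ways of processing, the *Bmp4* ratio ran from 0.341 to 2.64 and was above 1 in 15 of 16. Only *Id3* and *Smad6* stayed above 1 in all 16. *Bmp2* and *Bmp7* did so in 15, *Id1*, *Smad7* and *Bambi* in 14 and *Id2* in 11.

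The inhibitors also differed in VE, which is not a target of Sox2-Cre. In VE, *Smad7* was at 38.4 and 63.6 CPM, with a ratio of 1.66 (1.42 to 1.94), *Smad6* at 41.9 and 63.3 CPM, with a ratio of 1.51 (1.30 to 1.76), and *Bambi* at 24.2 and 15.6 CPM, with a ratio of 0.643 (0.516 to 0.804). These were 2 of 9 genes higher, beside 3.43%, and 1 lower, beside 3.38%. *Id1* in VE, at 387 and 426 CPM, had a ratio of 1.10 (1.05 to 1.16). VE had 20 control and 12 mutant Y-bearing cells, and in these the *Smad6* ratio was 0.348, against 2.10 in *Xist*-bearing cells. *Smad7* had ratios of 0.973 and 1.86 in the same split. In AVE, *Id1* was at 724 and 582 CPM, with a ratio of 0.803, with 0 of 7 genes higher by 1.5-fold, beside 5.66%, and 0 lower, beside 4.62%, in 18 and 20 cells. *Id4* had 0 UMIs in AVE of either library, which allows up to 3.17 and 1.95 CPM (3 UMIs each), and 0 control and 8 mutant UMIs in VE.

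ExE carried most of the *Id2* UMIs, 81.0% among control and 55.4% among mutant cells. *Id2* was at 596 and 621 CPM there, a ratio of 1.04 (1.01 to 1.07), and *Smad7* at 165 and 158 CPM, with a ratio of 0.956. *Id3* alone was past the fold, 1 of 8 genes higher beside 1.66% and 0 lower beside 2.85%, at 7.103 CPM in control and 22.05 CPM in mutant ExE, a ratio of 3.104 (2.49 to 3.89). After thinning, 13.5% of control and 25.3% of *Yap1* cKO ExE cells had an *Id3* UMI, with overlapping intervals. Without thinning, 1 mutant cell held 26.8% of the *Id3* UMIs of mutant ExE. *Pou5f1*, kept low by the gate, had a UMI in 0% and 2.06% of these cells. The *Id3* ratio was 1.07 for Y-bearing and 2.12 for *Xist*-bearing cells. Without the 5 cells of each library with most *Id3* UMIs, the *Id3* ratio was 2.35.

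Other genes of the pathway were taken from a list of 50 genes, whose values were not split into Y-bearing and *Xist*-bearing cells. In epiblast 30 had enough UMIs, of which 7 were higher and 2 lower by 1.5-fold or more, beside 2.17% and 3.6% of all genes, with a median ratio of 0.947. Within the *Fgf8* classes, 4 were higher and 1 lower of 25 in *Fgf8*-low cells (beside 2.08% and 3.01%), and 2 were higher and 3 lower of 27 in *Fgf8*-positive cells (beside 2.72% and 4.72%), with median ratios of 0.995 and 0.881. In all epiblast cells the receptors (6 of 6 tested) and the Smads that carry the signal (3 of 4 tested) had 0 genes past the fold, and *Smad4* was at 123 and 100.3 CPM. Among 6 tested targets other than the 10 genes, 4 were higher: *Msx1*, a homeobox gene that BMP signals raise, at 3.61 and 10.4 CPM, with a ratio of 2.87 (2.23 to 3.74), *Tbx3*, a ratio of 1.82, *Dlx5*, 1.62, and *Msx2*, 1.56. In *Fgf8*-low cells 1 of 3 tested targets was higher, and in *Fgf8*-positive cells 2 of 6, with 1 lower. *Prdm1*, needed for primordial germ cells, was lower, with 71 and 48 UMIs and a ratio of 0.572 (0.388 to 0.837). Among extracellular regulators, *Fst*, which binds activin and BMPs, was at 56.4 and 89.8 CPM, with a ratio of 1.59 (1.49 to 1.71), *Bmper* had 43 and 111 UMIs, a ratio of 2.18 (1.52 to 3.18), *Tll1* 19 and 39 UMIs, a ratio of 1.74, and *Chrdl1* 98 and 70 UMIs, a ratio of 0.604 (0.438 to 0.83). The E proteins *Tcf3*, *Tcf4* and *Tcf12*, which Id proteins bind, had ratios from 0.951 to 0.991.

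Across 10 populations in 2 libraries, which share cells of a library, the pattern of log2(CPM + 1) of *Id1* was most like those of *Pigu* (Pearson's r 0.885), *Rnf121*, *4930414N06Rik*, *Myo9b* and *Snf8* among 12746 genes, over 20 points. None of these is one of the 10 genes, and *Id3* had an r of 0.294 and *Id2* of 0.227 with *Id1*. *Bmp4* was most like *Cmtm7* (0.937), *Ahnak*, *Plet1*, *Frs2* and *Adprh*, and *Smad7* had an r of 0.817 with *Bmp4*. The *Id* genes that were higher together in mutant epiblast thus had different patterns over the populations of the embryo.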

How the data were processed

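Per the labels and methods, cells of pooled E7 embryos of each genotype were run on 10x Genomics 3′ v3.1 chemistry, 1 library per genotype, and the submitters' processing notes name Cell Ranger 7.1.0 and mm10. The deposited values are UMI counts per gene and cell barcode, without normalization by the authors. The libraries held 70573418 and 87937858 UMIs. Barcodes with at least 5000 genes and at most 10% mitochondrial UMIs were kept, and 1 control and 4 *Yap1* cKO doublets called by scrublet in scanpy 1.11.5 were left out. Of 2 barcodes shared between the libraries, 0 were among the kept cells. 16 control and 20 *Yap1* cKO cells with markers of several populations or of none were not used.

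Cells were gated on summed CPM of marker genes, in this order: VE genes (1000 CPM; AVE with 300 of AVE genes), ExE genes (100), then, in cells with neither, blood and endothelial genes (300 CPM), *Noto*, *Foxj1* and *Shh* (20), *Foxf1* and *Hand1* (100), *Mesp1* and *Mesp2* (100), *T* and *Mixl1* (30), and epiblast genes (100) with *Pou5f1* (10). The gate thresholds lie on continuous levels: 37 and 39 epiblast cells were within 1.5-fold of the *Fgf8* limit. A Y-bearing cell had at least 2 UMIs of Y-linked genes without *Xist*, and an *Xist*-bearing cell the reverse.

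Intervals are exact at 95% (Poisson for levels, binomial given the summed UMIs for ratios, Clopper-Pearson for shares of cells) and cover counting error only. No model was fitted and no p-value is given. Members and lists were chosen with earlier results of these data known. Named genes are the 10 genes, those of the pathway list past 1.5-fold in epiblast with at least 50 UMIs, and the 5 genes most like *Id1* and *Bmp4* by Pearson's r. The other pathway genes given by value (*Smad4* and the E proteins) and the markers were added after their values were seen. The ratio and interval code was tested on simulated counts. Promoter windows are RefSeq's.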

Additional observations from a re-analysis of the deposited data

Results flagged for a closer look

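Pairs of values that pointed in opposite directions were marked for a second look, and in each case the difference was not tested, since each value comes from 1 library per genotype. The *Smad6* ratio of *Yap1* cKO to control was 1.51 in VE and 0.643 in *Foxf1*/*Hand1* mesoderm. In epiblast the *Bambi* ratio was 1.42 for Y-bearing and 0.828 for *Xist*-bearing cells. In *Fgf8*-positive epiblast the *Id1* ratio was 4.87 for Y-bearing and 0.747 for *Xist*-bearing cells, and that of *Id3* was 1.93 and 0.938.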

How the results depend on the processing

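No paired analysis was possible because each genotype had 1 library. In epiblast, *Id1*, *Id2*, *Id3*, *Id4* and *Smad7* were above 1 under all 18 alternatives run. The *Id1* ratio of 2.09 was 2.45 without the 5 cells of each library with most UMIs, 4.26 in Y-bearing cells, 1.31 in *Xist*-bearing cells, 2.79 in Leiden clusters and 1.74 with equal *Fgf8* distributions. The *Id2* ratio was 2.20 without those 5 cells, 1.79 after thinning, 3.06 in Y-bearing cells, 1.45 in *Xist*-bearing cells and 1.68 with equal *Fgf8* distributions. The *Id3* ratio was 1.32 scaled by the median gene, 1.23 with cells weighted equally, 1.60 in Y-bearing cells, 1.12 in *Xist*-bearing cells and 1.34 with both kinds weighted equally. In *Xist*-bearing cells *Id4* was higher and *Bmp4* lower by 1.5-fold, both with intervals that held 1. The share of all genes past the fold was not taken there. From 20 UMIs 2 of 10 genes were lower (*Bmp2*, *Bmp7*), as were 5 of 35 pathway genes, beside 6.47% of all genes. Shares of cells with *Id1* were 44.4% and 71.5% without thinning. Of 21 ratios in epiblast and its *Fgf8* classes, 9 were on the other side of 1 under at least 1 alternative. In all epiblast cells these were *Bambi* (0.828 to 1.42), *Smad6* (0.854 to 1.80) and *Bmp4* (0.645 to 1.34), given as lowest and highest values. Of 66 ratios outside epiblast, 44 were on the other side of 1 under at least 1 alternative. Among those past 1.5-fold these were *Id1* in node in Y-bearing cells (0, from 1 mutant cell), and, in VE, *Smad6* (0.348 in Y-bearing cells, 0.921 with both kinds weighted equally), *Smad7* (0.973) and *Bambi* (1.20), both in Y-bearing cells. The causes were not tested. The weightings by *Fgf8* and by sex, and the removal of cells with *Cer1* or *Foxa2*, were chosen after seeing the data. Free RNA was not subtracted in VE and AVE, and Leiden clusters gave no *Fgf8* classes; their epiblast clusters held 216 of 268 control and 159 of 256 mutant epiblast cells, and the cluster named primitive streak held 31 and 76 of them. Depth limits *Id4*, *Bmp2*, *Bmp4* and *Bmp7* in epiblast, each with under 100 UMIs in all.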
